A study of Ovis aries and Bos taurus with 10 samples.

Results

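GDF9, BMP15 and BMP2 are secreted ligands of the TGF-beta superfamily, and their transcripts were followed here on all 10 arrays of the series. Their members are the probe sets to which the array's annotation gives one of these 3 symbols alone. This rule found 4 of the 24016 probe sets that are not controls, namely 1 for GDF9, 2 for BMP15, called S1 and A1 after the end of their names, and 1 for BMP2. They stand for 3 of the 9155 gene symbols on the array. The measurements are MAS 5.0 signals from the Affymetrix Bovine Genome Array, on a linear scale that the authors brought to a trimmed mean of 100 on every array. Laser capture microdissection (LCM), in which single cells are picked from a tissue section with a laser, gave 6 ovine samples from lambs killed within 1 day of birth. They are oocytes from primordial (PDO), primary (PMO) and secondary (SECO) follicles, and the granulosa cells (GC) that surround the oocyte at the same 3 stages (PDG, PMG and SECG). Their RNA came from pools of 2 animals at the primordial and secondary stages and of 4 animals at the primary stage, was amplified over 2 rounds and carried the Arcturus turbo label. The other 4 arrays hold fetal ovary, 1 RNA from ovine ovary at 132 days post coitum that was labelled by 3 protocols, and RNA from bovine ovary at 8 months. Protocol P3 is the one used for the LCM samples, P2 joins the double amplification to Affymetrix labelling, and P1 is the standard Affymetrix labelling with 1 round of amplification, which was also used for the bovine RNA. No group has a second array, so no value below has a replicate error of its own.

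The oocyte feeds growth signals to the GC around it. GDF9 and BMP15 are the classical signals of this kind: both are made by the oocyte, they are close relatives that can act as a pair, and mutations of either gene in sheep change the ovulation rate or stop follicles at an early stage. GDF9 acts through the type II receptor BMPR2 and the type I receptor TGFBR1 toward SMAD2 and SMAD3, whereas BMP15 acts through BMPR2 and BMPR1B toward the SMADs of the BMP branch. BMP2, first known from bone formation, uses BMPR1A or BMPR1B with BMPR2 and feeds the same BMP branch.

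A probe set counted as detected when it ranked among the brightest of its array, down to the rank that matches the percentage of present calls of that array in the study's supplement. The limit set in this way lay between 45.8 and 74.2 on the LCM arrays and between 28.9 and 44.7 on the fetal ovary arrays. The GDF9 probe set was detected on 10 of 10 arrays, the BMP2 probe set on 6, the S1 probe set of BMP15 on 3 and its A1 probe set on 0.

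The labels were set against marker genes. Of 8 oocyte markers on the array, 7 were detected on all 3 oocyte arrays, and 7 were also detected on all 3 GC arrays. Their summed signal was 3022 to 7941 on the oocyte arrays and 3002 to 5796 on the GC arrays. Of 13 GC markers, 4 were detected on all 3 GC arrays and 3 on all 3 oocyte arrays. Their summed signal was 496 to 1047 on the oocyte arrays and 950 to 3023 on the GC arrays. Of all 9155 genes on the array, each through its brightest probe set, 3541 were detected on all 3 oocyte arrays and 3777 on all 3 GC arrays. Among the GC markers, AMH, FOXL2, KITLG, CYP19A1 and FSHR were detected on no LCM array, and follistatin (FST), at 107, 410 and 776 on PDG, PMG and SECG against 15.2, 111 and 51.4 on PDO, PMO and SECO, was among those that were.

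GDF9, which drives GC to multiply and follicles to pass the primary stage, was detected in both compartments at all 3 stages. Its signal was 259 on PDO, 476 on PMO and 162 on SECO, against 282 on PDG, 240.1 on PMG and 169 on SECG. PMO stood above every other LCM array, the GC arrays lay within the range of the oocyte arrays, and the primordial and secondary pairs each differed by less than 10%. In the order of signal the arrays ran PMO, PDG, PDO, PMG, SECG, SECO. The signal averaged 299 ± 161 over the 3 oocyte arrays and 230.5 ± 57.0 over the 3 GC arrays (SD over stages, n = 3 each). Both SDs are spreads over stages and not errors of measurement, so they cannot tell which steps in this order exceed noise. Between 83.8 and 93.6% of the probe sets were dimmer than GDF9 on each LCM array. Detection on all 6 LCM arrays, as found for GDF9, was shared by 42.2% of the probe sets detected on any of them.

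The compartments were compared with limma on log2(signal + 20), with the stage as a term and the 3 stages in place of replicates, over the 11642 probe sets that 1 or more LCM arrays detected. The p-values therefore weigh the difference against its own variation from stage to stage and not against the spread among animals. That variation has 2 residual degrees of freedom and is drawn toward the variances of the other probe sets, with 5.43 prior degrees of freedom. Of these probe sets, 0% had an adjusted p under 0.05 (Benjamini-Hochberg), and 11.1% had an unadjusted p under 0.05. GDF9 had an oocyte minus GC difference of 0.25 ± 0.35 (SE) on this log2 scale, with an adjusted p of 0.81 by limma and a 95% confidence interval from -0.56 to 1.06. At the primordial and secondary stages the difference was -0.11 and -0.06, and at the primary stage it was 0.93. Without the primary stage the difference was -0.086, so its sign rests on the primary pair. A difference of 2-fold or more in favour of oocytes was found for 11% of the probe sets at the primary stage, and GDF9, at 1.91-fold on signal + 20, was just short of it.

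**Figure D1:**
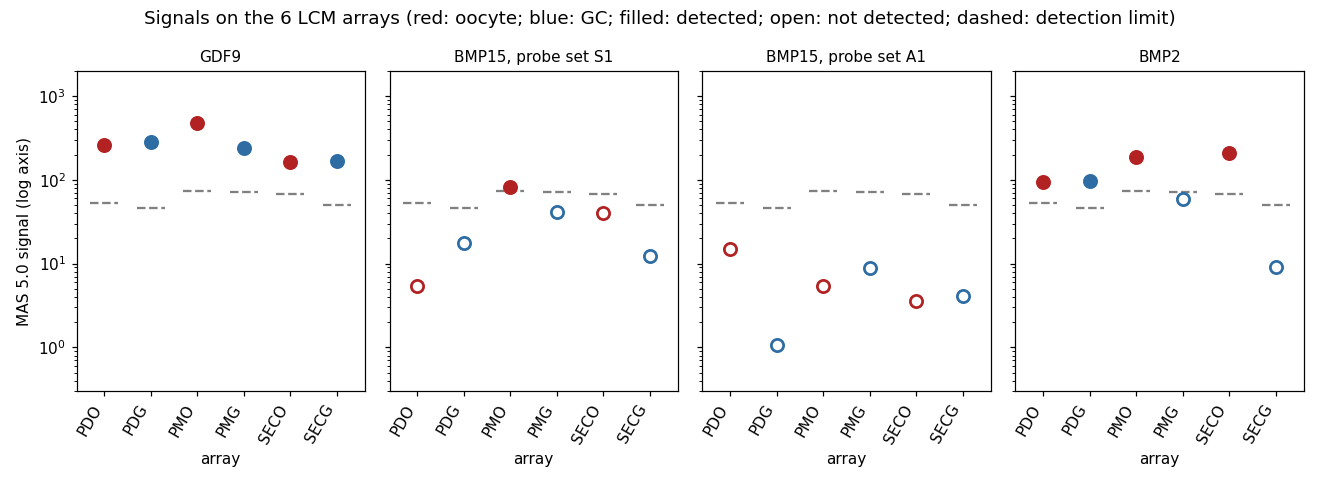
MAS 5.0 signal, on a log axis, of the 4 probe sets on the 6 LCM arrays, each oocyte array (red) left of the GC array (blue) of the same stage, 1 array a point. GDF9 lies above the dashed detection limit on every array, BMP15 only on PMO and only with its S1 probe set, and BMP2 on the 3 oocyte arrays and on PDG.

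BMP15, which supports GC growth and holds back their response to FSH, lay close to or under the detection limit. Its S1 probe set gave 5.40 on PDO, 82.8 on PMO and 40.6 on SECO, against 17.7 on PDG, 41.8 on PMG and 12.5 on SECG. Only PMO passed its limit, which was 74.2 there, and the 2 compartments overlapped. A single detection among the 6 LCM arrays was common: 18.3% of the probe sets tested had exactly 1. With the limits in place of signals under them, BMP15 was at least 1.15-fold brighter on PMO than on PMG and at least 1.59-fold brighter on PMO than on PDO. No fold is given at the primordial and secondary stages, where neither compartment was detected, and none for the compartments as a whole, as no GC array detected it. The S1 probe set entered the limma test through PMO alone, the array where it was brightest, and its adjusted p of 0.75 rests mainly on signals under the limit. Its A1 probe set gave 1.06 to 15 on the 6 arrays, was far under every limit, and did not enter the test. Both probe sets of BMP15 carry the same gene ID and transcript in the annotation.

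BMP2 was the ligand of the 3 with the widest gap between the compartments. Its signal was 93.3 on PDO, 187 on PMO and 209.7 on SECO, against 96.1 on PDG, 58.7 on PMG and 9.14 on SECG. The primordial pair was level, the oocyte array was brighter at the primary and secondary stages, and the GC signal passed its limit at the primordial stage alone. The groups overlapped, because PDG lay above PDO. Such a pattern of detection, on all 3 oocyte arrays and on at most 1 GC array, was shared by 1.45% of the probe sets tested. It depends on the limit: with a signal of at least 50 in its place, PMG counted as detected too. With the limits in place of the GC signals under them, BMP2 was at least 2.60-fold brighter on PMO than on PMG and at least 4.21-fold brighter on SECO than on SECG. Here 11% and 10.1% of the probe sets differed 2-fold or more in this direction on log2(signal + 20).

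On the log2 scale the oocyte minus GC difference of BMP2 was -0.03 at the primordial, 1.40 at the primary and 2.98 at the secondary stage. The last 2 take GC signals under the limit at face value, so that only the bounds above stand for their size. The limma difference over the 3 stages was 1.45 ± 0.54 (SE), with an unadjusted p of 0.0300 and an adjusted p of 0.42. It did not pass the test after adjustment, and 5.53% of the probe sets were higher in oocytes with an unadjusted p under 0.05. It takes in the GC signals under the limit and so depends in part on the constant of 20. Its size depends on the stages used: it was 0.68 without the secondary stage (adjusted p of 0.55 by limma) and 2.19 without the primordial stage (0.62). The exact sign-flip test over the 3 stage differences, which cannot go below a two-sided p of 0.25, gave 0.5 for BMP2 and 1 for GDF9.

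**Figure D2:**
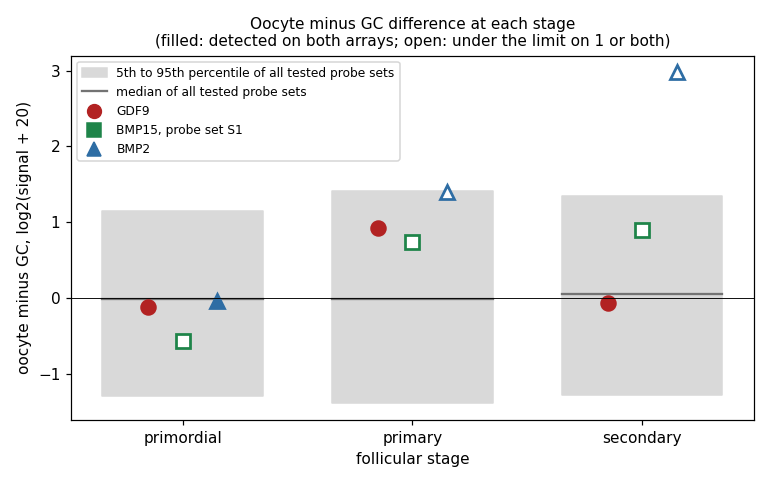
Oocyte minus GC difference of log2(signal + 20) at each follicular stage for GDF9, BMP15 (S1 probe set) and BMP2, over grey bars from the 5th to the 95th percentile of the 11642 tested probe sets, with open symbols where 1 or both arrays were under the limit. BMP2 leaves the grey bar at the secondary stage, at 2.98, a value that rests on a SECG signal under the limit, and the 3 ligands lie inside it at the primordial stage.

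The stages also differed within a compartment. In oocytes the BMP2 signal on SECO was 2.25-fold that on PDO and the signal on PMO 2.01-fold that on PDO. On log2(signal + 20) these are differences of 1.02 and 0.87, where 13.1% and 8.25% of the probe sets were at least 2-fold brighter. In GC the signal on PDG was at least 1.93-fold that on SECG, where the limit took the place of the SECG signal, and 8.63% of the probe sets were at least 2-fold dimmer on SECG. Both later oocyte arrays above PDO, with both later GC arrays below PDG, were found for 7.96% of the probe sets. PMG and SECG were both under their limits, so that BMP2 has no order between them. GDF9 had another course, with a PMO signal 1.83-fold that on PDO, a signal on SECO that was 0.340-fold that on PMO in oocytes and a signal on SECG that was 0.600-fold that on PDG in GC. Of all probe sets, 10.9% were at least 2-fold dimmer on SECO than on PMO. With 1 array per stage, none of these courses has a test.

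Markers of other cells were set beside BMP2, and their sums followed its signal on some arrays and not on others. The summed signal of 9 stroma markers was 16027 on PDO, 4615 on PMO and 16326 on SECO, against 47668 on PDG, 29820 on PMG and 13062 on SECG. Like BMP2, it was highest on PDG among the GC arrays. Among the oocyte arrays it was lowest on PMO, whereas BMP2 was lowest on PDO. Most of the sum came from COL1A2 and COL3A1, at 18143 and 22597 on PDG. All 9 stroma markers were detected on a GC array and 6 on an oocyte array. The summed signal of 10 blood and vessel markers was 4869 on SECO, above the 345 to 1313 of the other LCM arrays, and most of it came from the beta globin gene HBB, at 3838. Of these 10, 4 were detected on an oocyte array and 5 on a GC array, while HBA, PTPRC, CD14, VWF and KDR were detected on none. The part of these markers in the BMP2 signals was not tested. For GDF9, the 8 oocyte markers of the list, which does not hold the 3 ligands, summed to 7932, 7941 and 3022 on PDO, PMO and SECO, against 3002, 5796 and 3556 on PDG, PMG and SECG. Their part in the GDF9 signals of GC was likewise not tested. In captured cells, fewer cells of a type and less RNA per cell cannot be told apart.

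The fetal ovary arrays show how far each probe set depends on the RNA and on its labelling. Under P1, GDF9 had a signal of 1084 with ovine and 49.6 with bovine RNA, a 21.9-fold ratio and a log2(signal + 20) difference of 3.99. Only 0.0202% of the 14838 probe sets that at least 1 species detected had a larger difference, while 12.3% were at least 2-fold brighter with ovine RNA. The S1 probe set of BMP15 went the other way, with 40.4 in ovine and 108 in bovine ovary, a ratio of 0.374, and 20.5% of the probe sets were dimmer by 2-fold or more with ovine RNA. BMP2 was under the limit in both, at 18.7 with ovine and 10.3 with bovine RNA, so that no fold is given. The A1 probe set of BMP15 had 4.5 and 0.5, under the limit in both and far below the S1 probe set in the species for which the array was made. Other oocyte markers were also brighter with ovine RNA under P1. ZP2, ZP3 and ZP4 had 1236, 3104 and 1384, against 92.5, 359 and 101 with bovine RNA. MAEL, KIT and SYCP3 were brighter with bovine RNA, and these markers are named after their values were seen. Species, fetal age and the content of oocytes cannot be told apart in this pair.

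After double amplification of the same ovine RNA, GDF9 was dimmer and BMP2 brighter than under P1, with 1 array per protocol and so no test. GDF9 had a signal of 216 under P3 and 136 under P2, against 1084 under P1, so that 0.199-fold and 0.125-fold of the P1 signal was left. Of all probe sets, 25.7% were at least 2-fold dimmer under P3 and 22.9% under P2. BMP2 had 127 under P3 and 84.8 under P2, against 18.7 under P1, where it was not detected, at least a 3.96-fold and a 2.64-fold gain over the P1 limit of 32.1. Of all probe sets, 14.2% were at least 2-fold brighter under P3 and 12.9% under P2, and 2.96% were detected under both double amplification protocols but not under P1. BMP15 was not detected after double amplification. Its S1 probe set had 8.3 under P3 and 1.8 under P2, both undetected, against 40.4 under P1. That P1 signal lies under the P3 and P2 limits of 42.3 and 44.7, so that the same signal would not have counted as detected there. BMP2 was detected on neither P1 array, and of the double amplified LCM arrays PMG and SECG did not detect it either.

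**Figure D3:**
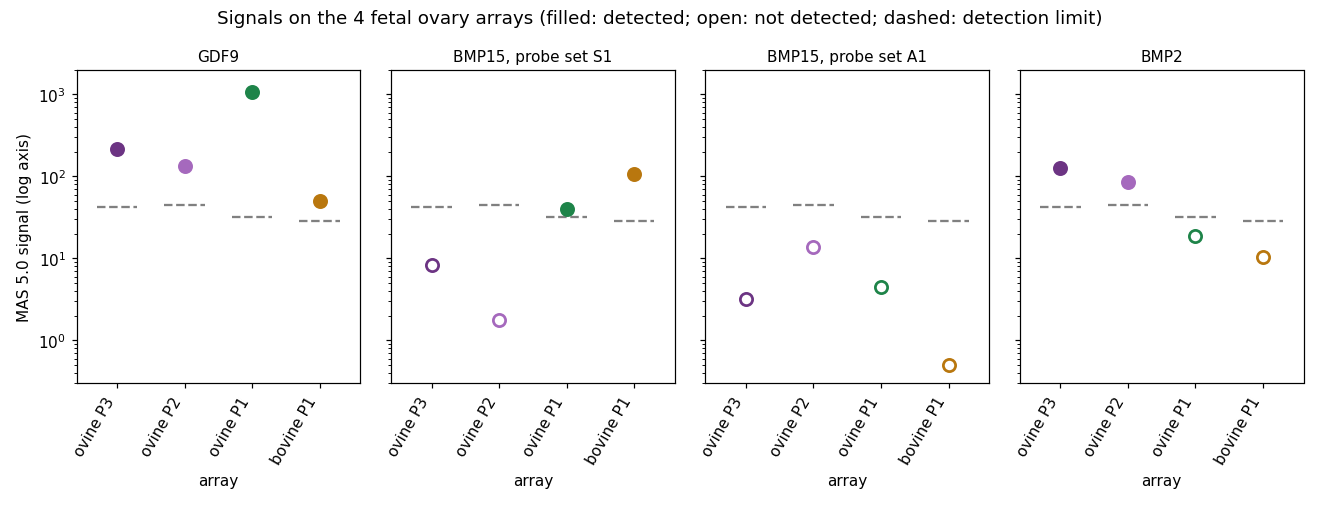
MAS 5.0 signal, on a log axis, of the 4 probe sets on the 4 fetal ovary arrays, with ovine RNA labelled by P3, P2 and P1 and bovine RNA labelled by P1, 1 array a point and the detection limit dashed. GDF9 is brightest with ovine RNA under P1, at 1084, whereas BMP2 is detected only under P3 and P2.

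Against the fetal ovary labelled in the same way (P3), the captured oocytes were not uniformly richer in the ligands. GDF9 had 1.20-fold the P3 signal on PDO, 2.20-fold on PMO and 0.749-fold on SECO, and 1.31, 1.11 and 0.784-fold on PDG, PMG and SECG. A signal at least 2-fold above P3 on PMO was found for 14% of the probe sets. BMP2 had 0.735, 1.48 and 1.65-fold on PDO, PMO and SECO, and 0.757-fold on PDG, while it was at least 1.76-fold dimmer on PMG and at least 2.55-fold dimmer on SECG than under P3. For SECG, 12% of the probe sets were at least 2-fold dimmer. The S1 probe set of BMP15 on PMO was at least 1.96-fold brighter than under P3. A signal above P3 on all 3 oocyte arrays was found for 30.4% of the 12134 probe sets detected on these 7 arrays, and neither GDF9 nor BMP2 was among them. Whole ovary at a fetal age and cells captured after birth differ in more than their content of oocytes, so these ratios are no measure of enrichment.

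The partners of the ligands were examined over 7 lists of ligands, receptors, SMADs, ligand-binding modulators, proprotein convertases, GC targets and oocyte transcription regulators. Beside the 3 ligands, 59 of their genes were on the array under a single symbol. Of these, 32 (54.2%) were detected on at least 1 LCM array and tested, each through its brightest probe set. Among all 9155 genes, 6284 (68.6%) were tested. After adjustment 0 of the 32 passed limma's test in either direction, against 0 of 6284 genes in all, and at an unadjusted p under 0.05, 0 were higher and 4 lower in oocytes (0% and 12.5%), against 5.65% and 5.12% of all genes. Their median difference was -0.19, against 0.05 for all genes. The lists hold genes chosen as GC targets, and FST, INHA and INHBA among them are also GC markers. Of the 4 lower genes, 3 were GC targets. A lean toward GC is thus partly built into the lists and is no result about the pathway. All 3 oocyte signals lay above all 3 GC signals for 2 of the 32 and below them for 3, 6.25% and 9.38%. These shares were 8.04% and 7.18% over all genes and 7.28% and 7.71% over all probe sets. GDF9, BMP15 and BMP2 overlapped between compartments.

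Of the 13 other ligands on the array 7 were tested (53.8%, against 68.6% of all genes). These 7 had a median difference of -0.38, and 1 was detected on all 3 oocyte arrays. AMH, BMP4, GDF5, GDF7, MSTN and TGFB1 were detected on no LCM array. Of 11 receptors and co-receptors 5 were tested (45.5%). BMPR2, the type II receptor that GDF9, BMP15 and BMP2 can use, was detected on PMO at 81.4, and on PMG and SECG at 83.3 and 56.3. Their type I receptors TGFBR1, BMPR1A and BMPR1B stayed under the limit on all 6 arrays. ACVR1, another type I receptor of the BMP branch, was detected on all 6, with 268, 178 and 266 on PDO, PMO and SECO, against 408, 392 and 344 on PDG, PMG and SECG, a difference of -0.66 ± 0.32 (adjusted p of 0.48 by limma). SMAD2, SMAD3 and SMAD4, which carry the GDF9 signal to the nucleus, were likewise detected on all 6, SMAD5 of the BMP branch on none, and no SMAD separated the compartments. The choice of the receptors and SMADs named here, ACVR1 apart, was made with their values known.

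Among 8 modulators that bind ligands of the family 6 were tested (75%, against 68.6% of all genes). LTBP1, which holds latent TGF-beta in the matrix, had 24.6, 3.93 and 22.5 on PDO, PMO and SECO, all undetected, against 144, 90.8 and 57.11 on PDG, PMG and SECG. FSTL3, a relative of follistatin, was above GC at all 3 stages with 60.9, 56.6 and 50.6 on PDO, PMO and SECO, against 15.7, 30.9 and 34.4 on PDG, PMG and SECG, but was detected on PDO alone, and it is named after its values were seen. Of 21 genes known to respond to these ligands in GC 11 were tested (52.4%), with a median difference of -0.28. This list was chosen for GC, so that a lean toward GC is partly built in. CCND2, a cyclin of proliferating GC, had 135, 122 and 199 on PDO, PMO and SECO, against 376, 239 and 328 on PDG, PMG and SECG, a difference of -0.96 ± 0.32 (adjusted p of 0.41 by limma). The other 10 overlapped between compartments. The matrix genes PTX3 and TNFAIP6, known as GDF9 targets from mouse cumulus cells, were detected on no LCM array. HAS2, on the same list, was detected on SECO at 80.7 and on SECG at 139. PTX3, TNFAIP6 and HAS2 are named after their values were seen. Of 4 proprotein convertases, the enzymes that cut the ligand precursors, FURIN alone (25%) was detected, on PDO and PMO and on SECG. Of the oocyte transcription regulators only POU5F1 had a symbol on the array, with 243, 417 and 217 on PDO, PMO and SECO, against 214, 140 and 160 on PDG, PMG and SECG.

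**Figure D4:**
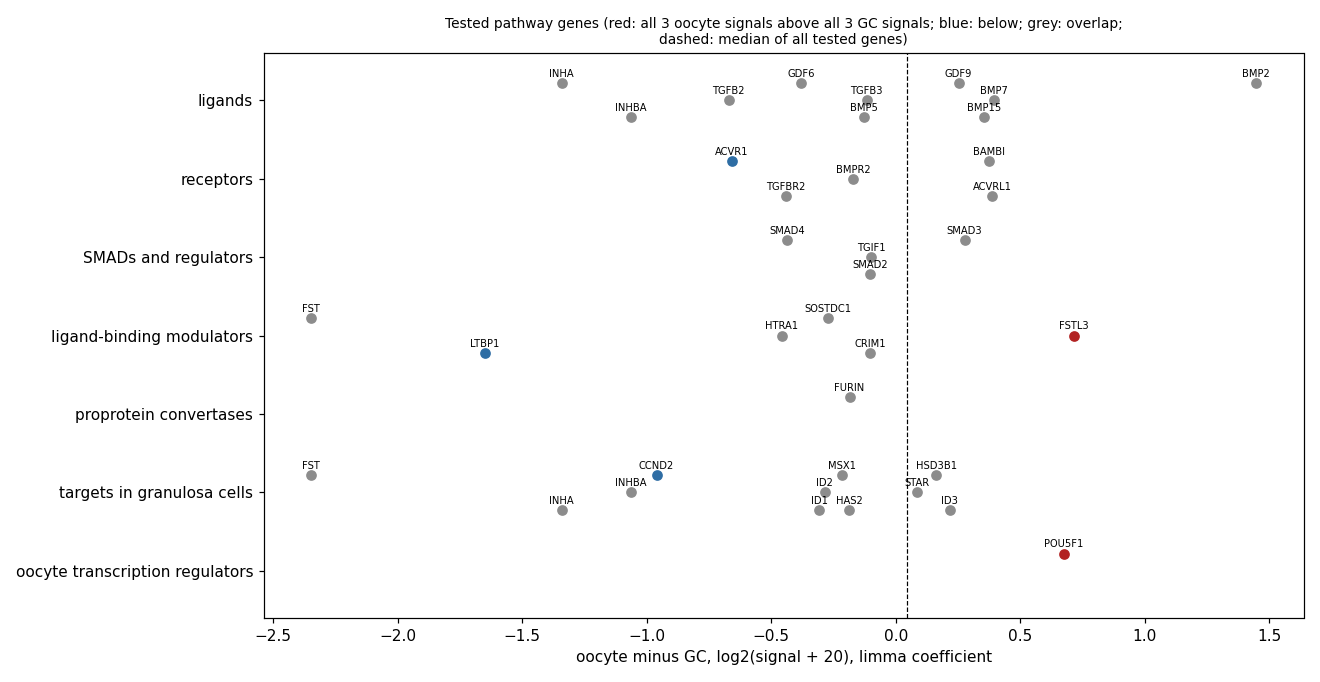
Oocyte minus GC difference of log2(signal + 20), as fitted by limma over 3 stages, of the tested genes of the 7 lists, a point per gene and list (genes on more than 1 list appear in each), with the median of all tested genes dashed. BMP2, at 1.45, lies farthest to the right, FST farthest to the left, and points in red (FSTL3 and POU5F1) or blue (ACVR1, LTBP1 and CCND2) mark genes whose compartments do not overlap.

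The genes most like each ligand over the 6 LCM arrays were sought among those detected on at least 3 of them, by the Pearson correlation of log2(signal + 20). For GDF9 these were CDCA7L, ZNF197 and INPP1, with r of 0.98, 0.97 and 0.97. CDCA7L, a nuclear protein, had 298, 398 and 194 on PDO, PMO and SECO, against 310, 275 and 196 on PDG, PMG and SECG, and so shared the high PMO signal and the level pairs of GDF9. For BMP2 they were the arginine methyltransferase PRMT2, the translation factor EIF4H and the fructose transporter SLC2A5, with r of 0.98, 0.97 and 0.97. SLC2A5 had 50.5, 76.5 and 86.0 on PDO, PMO and SECO, against 54.4, 31.7 and 21.9 on PDG, PMG and SECG. For the S1 probe set of BMP15 they were the ribosomal protein gene RPS15A, SPATA24 and the ribosomal protein gene RPL34, each at 0.97, but BMP15 was detected on 1 of the 6 arrays, so that this likeness ranks signals under the limit. Among 5424 to 5425 candidates 11, 12 and 5 reached an r of 0.95 with GDF9, BMP2 and BMP15. These are descriptions over 6 arrays that share their scaling and label, and a close match is easy to find among so many candidates.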

How the data were processed

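RNA of 6 LCM samples and 4 fetal ovary samples was hybridized to Affymetrix Bovine Genome Arrays, 1 array each. The authors read the images with MAS 5.0 in GCOS and deposited signal intensity values on a linear scale, scaled to 100 on each array (trimmed by 2% at each end) and not normalized between arrays. The versions of GCOS are not given in the sources used here. The 112 control probe sets were left out. Symbols came from the platform annotation: 13292 probe sets have 1 symbol, 86 several and 10638 none.

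Present calls were not used, and a probe set counted as detected as stated in the report. A constant of 20 was added before log2, and limma 3.58.1 in R 4.3.3 was fitted to compartment and stage (2 residual and 5.43 prior degrees of freedom). Ratios of single arrays have no test. The fit was also run on simulated data with the same noise for every probe set. The changes planted there were larger than the limma differences of the 3 ligands, so that run does not bear on them. Python 3.11.15 and matplotlib 3.10.9 drew the figures. Alternatives were a constant of 1 or 50, quantile normalization, detection on 3 or more arrays in the filter, the filter left out, no stage term, an intensity trend, leaving out each stage, and detection at a signal of 50 or 100 or in the brightest 30%. A ratio was taken as moved when it shifted by more than the median residual SD of 0.38. Pathway genes were named where the compartments did not overlap and the brighter one was detected on all its arrays, and other names are said to be chosen later. The members and lists were chosen with earlier results of these data known. The quantitative PCR is not analysed here. The number of arrays limits the precision.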

Additional observations from a re-analysis of the deposited data

Results flagged for a closer look

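The BMP2 signal ran in opposite directions over the stages in the 2 compartments. Both later oocyte arrays lay above PDO, by 0.87 on PMO and 1.02 on SECO on the log2(signal + 20) scale, and both later GC arrays lay below PDG, at -0.56 on PMG and -1.99 on SECG. The secondary minus primordial differences of oocytes and GC thus lay 3.01 apart. The difference between the compartments was not tested, since each stage has 1 array, and 7.96% of the probe sets showed this pattern. PMG and SECG were under their detection limits, so that -0.56, -1.99 and 3.01 take these signals at face value. With the limit in place of the SECG signal, PDG was at least 1.93-fold brighter than SECG.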

How the results depend on the processing

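The oocyte minus GC difference of BMP2 was positive and short of the threshold under all 10 alternatives, between 0.68 and 2.19, with adjusted p from 0.24 to 0.62. That of BMP15 had the same sign under the 9 alternatives that could be run, with adjusted p from 0.72 to 0.96, and could not be run with detection on at least 3 arrays, which it fails. GDF9 was positive under 9 of 10 (adjusted p from 0.68 to 0.98), and its difference was -0.086 without the primary stage. The A1 probe set of BMP15 entered only without the filter. With an intensity trend in the variance limma called 10 probe sets in place of 0, none of them a member, and the cause was not tested. With a signal of at least 100 as the limit, BMP2 was detected on 2 LCM arrays in place of 4 and BMP15 on 0 in place of 1, and with at least 50 BMP2 was detected on 5, of which 2 were GC arrays.

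The log2 ratios of single fetal arrays kept their sign under the 24 alternatives and shifted by less than the residual SD under 13. The others were the following, with a constant of 1 and 50 in this order. For ovine over bovine P1, GDF9 gave 4.42 and 3.51, and 4.56 after quantile normalization of the 10 arrays. For P3 over P1, BMP15 gave -2.15 and -0.63 and BMP2 2.70 and 1.37, and for P2 over P1, BMP15 gave -3.89 and -0.80 and BMP2 2.12 and 0.97. Of 39 alternatives for the LCM arrays over P3, 35 shifted by less than the residual SD.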
